A study of Mus musculus with 10 samples.

Results

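The nuclear genes that encode subunits of respiratory complexes II, III, IV and V were followed in the mouse hippocampus after ablation of the lymphatic vessels of the meninges. The set was chosen by gene symbol and holds 37 genes of the 27343 in the count table, namely 4 of complex II, 9 of complex III, 10 of complex IV and 14 of complex V. All 37 were in the table, and 36 passed the filter on low counts, Cox5b being the exception.

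These complexes sit in the inner mitochondrial membrane. Complex II oxidises succinate, complex III passes the electrons from ubiquinol to cytochrome c, complex IV passes them to oxygen, and complex V, the ATP synthase, uses the proton gradient so formed to make ATP. All subunits of complex II come from nuclear genes, whereas complexes III, IV and V also hold subunits encoded by the mitochondrial genome. In the hippocampus these complexes are known for supplying the ATP that neurons spend on ion pumping and synaptic transmission.

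The mice were wild-type C57BL/6J males, 2 months old. One group, with 5 libraries here, received Visudyne into the cisterna magna. Visudyne is verteporfin, a photosensitizer that non-thermal red light of 689 nm, shone through the intact skull, converts locally. The other group, also with 5 libraries, received vehicle. The procedure was done again 2 weeks later in both groups, the Morris water maze followed after 2 more weeks, and the whole hippocampus was taken 3 days after the maze. By the design text and the sample titles both groups carry the injection, the light and the maze. The treatment label names the maze for the Visudyne samples alone, so vehicle mice were taken to have done it from the other labels. No untreated mouse was analysed here. Libraries are named by group and label number, Visudyne 1 to 5 and vehicle 6 to 10. The labels list each library as a sample of its own without naming its mouse, so p-values measure the spread between these libraries, which may be technical.

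Depth per library ranged from 34548474 to 36956138 counts with Visudyne and from 24752362 to 41073906 with vehicle. The large ribosomal RNA of mitochondria, mt-Rnr2, took 32.2% to 39.7%. All 8 markers of hippocampal pyramidal and granule neurons were tested, down to Spink8 at 7.96 CPM (counts scaled to the library size) in vehicle. A list of 9 choroid plexus markers summed to 1480 CPM in Visudyne 3 and 933 CPM in Visudyne 5, against 189 to 224 CPM in the other Visudyne libraries and 184 to 241 CPM in vehicle. Aqp1 and Slc4a5 of that list were too low to test. Libraries also differed in how expression followed the GC content of transcripts. The slope of centred log2 CPM per 10 percentage points of GC was -0.52 to 0.0063 in Visudyne and -0.020 to 0.39 in vehicle, lowest in Visudyne 1 and highest in vehicle 9. CPM values below use library sizes scaled with TMM (trimmed mean of M-values). Below, a GC trend removed means that each library's smooth curve of expression on GC content was subtracted in the fit.

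The members differed widely in level. Levels between genes are compared per length, as mean vehicle CPM per kilobase of transcript, the length being the median of the gene's protein-coding transcripts. Atp5b, the catalytic beta subunit of the ATP synthase, was the highest at 277 CPM per kilobase. It was followed by Cox6c at 182, Uqcrh at 162, Atp5c1 at 161, Cox8a at 158 and Atp5a1 at 149.8 CPM per kilobase. The levels of Uqcrh, Atp5c1 and Cox8a lay closer together than the spread between libraries, whose coefficient of variation in vehicle was 9.83%, 5.51% and 12.5%. In all, 11 members were above 100 CPM per kilobase and 6 below 10, which were Atp5g1 at 9.92, Uqcr11 at 8.09, Cyc1 at 7.93, Atp5d at 4.53, Uqcrc1 at 3.86 and Cox5b at 0.555.

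Subunits that assemble together were not at matching transcript levels. Uqcrc1 and Uqcrc2 encode the paired core proteins of complex III, and Uqcrc2 was at 23.8 times the level of Uqcrc1 per kilobase in vehicle. That ratio is loose, because it was 70.4 in Visudyne and Uqcrc1 had a coefficient of variation of 56.5% in vehicle. Atp5b and Atp5a1 encode the alternating beta and alpha subunits of the ATP synthase head, and their ratio was 1.85. Atp5d, the delta subunit of its central stalk, stood 61.2 times below Atp5b. The same ratio was 101 in Visudyne, and the coefficient of variation of Atp5d was 47.1% in vehicle. Across the 36 tested members, level per kilobase fell with GC content (Spearman's rho -0.50, Pearson's r -0.52 on log2 levels). This is a description across genes, which share libraries and depth. Small subunit genes often have processed pseudogene copies, and the authors' counting could have split their reads, so the levels of the lowest members are uncertain.

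Between the groups, 14 of the 36 tested members were called lower in Visudyne, 2 were called higher and 20 were not called (edgeR quasi-likelihood test, adjusted p under 0.05 over all 15938 tested genes). Of all tested genes, 11.5% were called lower and 8.98% higher. The median log2 fold change of the members was -0.29, a fold of 0.817, beside 0.010 over all tested genes. Of the 36 members, 27 lay below 0, against 7801 of all 15938 genes. The 5 Visudyne values all lay below the 5 vehicle values in 8 members, and above them in 0, where 7.22% and 5.25% of all tested genes did so. When libraries were scaled by total counts instead, the median of all genes moved to -0.19 and that of the members to -0.49. Then 24 members were called lower and 0 higher, where 24.5% of all genes were called lower and 196 of 15938 higher.

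These counts changed with single libraries, as did those of all genes. The members called lower were 7 without Visudyne 1, 9 without Visudyne 2, 6 without Visudyne 4 and 8 without vehicle 7, where 4.22%, 6.06%, 3.7% and 5.55% of all tested genes were called lower. They were 18 without Visudyne 5, 12 without vehicle 8 and 17 without vehicle 10, beside 17.9%, 8.46% and 13.6% of all genes. They were 0 without Visudyne 3, vehicle 6 or vehicle 9, where the calls of all genes fell to 0.031%, 0.0311% and 0.796%. The loss there was thus shared with the whole table. In those fits edgeR gave 20 of 37, 21 of 36 and 20 of 36 members an unadjusted p under 0.05. Over all genes it gave this to 5332 of 16149, 5134 of 16068 and 5281 of 16089. No other tool was run on those libraries. Without Visudyne 3 and 5, the libraries high in choroid plexus transcripts, 15 of 37 tested there were called lower and 0 higher, beside 10.6% of 16356 genes called lower and 1277 genes called higher. The median stayed between -0.34 and -0.26 when any 1 library was left out, so the calls moved more than the size. Of the marker lists, 4 of 7 tested oligodendrocyte genes were called lower (summed level 2180 to 2602 CPM in Visudyne and 2258 to 3038 CPM in vehicle). So were 3 of 8 endothelial and mural genes (62.6 to 73.6 and 68.0 to 79.8 CPM), where 11.5% of all genes were called lower. With the GC trend removed 2 were called lower in each of these lists. Lower calls elsewhere were 0 of 6 neuron, 1 of 8 pyramidal and granule, 1 of 8 astrocyte, 1 of 8 microglia and 0 of 7 choroid plexus genes. The summed levels of those lists had a higher mean with Visudyne, with groups overlapping. Mag, an oligodendrocyte marker too low to test, was at 0.182 CPM in vehicle. The part of these markers in the result was not tested.

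**Figure D1:**
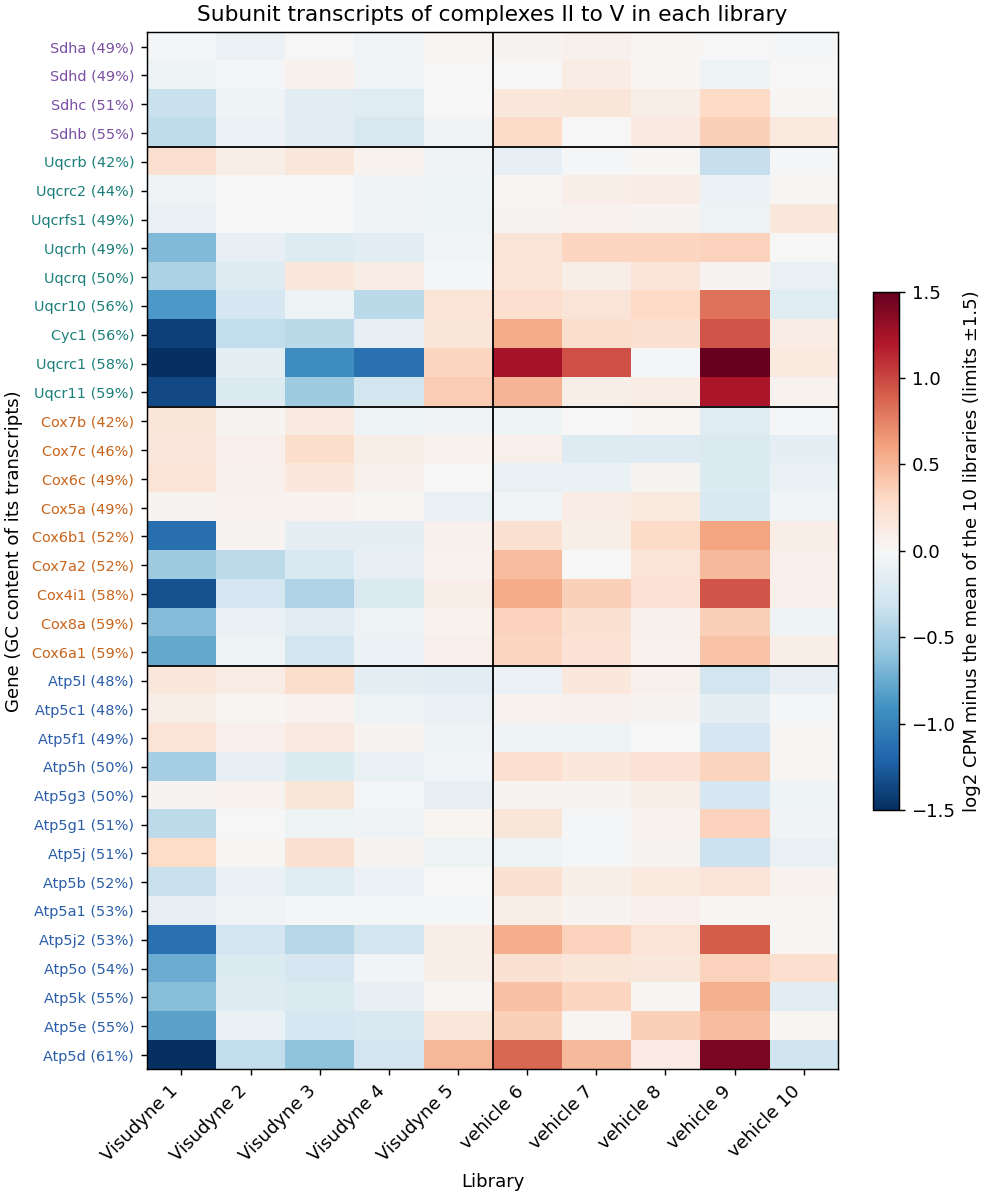
Each row is 1 of the 36 tested members, coloured by complex (purple II, green III, orange IV, blue V) and ordered by GC content within it, and each column is a library. Colour is log2 CPM minus the mean of the 10 libraries, limited at ±1.5; Visudyne 1 is the lowest library in 23 members and the highest in 6, and vehicle 9 is the highest in 19 and the lowest in 12.

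Complex II, which is also the succinate dehydrogenase of the citric acid cycle, had 2 of 4 members called lower, while the other 2 were not called. Sdhb (ENSMUSG00000009863, GRCm38 chromosome 4, 140961203 to 140979193), the iron-sulfur subunit, stood at 19.8, 24.2, 22.9, 21.9 and 24.9 CPM in Visudyne 1 to 5 and at 31.6, 25.7, 28.4, 33.1 and 28.6 CPM in vehicle 6 to 10. Every Visudyne library was below every vehicle library, though Visudyne 5 and vehicle 7 were close. Its log2 fold change was -0.37 ± 0.083 (SE; edgeR adjusted p = 0.0246), and it was -0.09 and not called after the GC trend of each library was taken out. Sdhc, a membrane anchor subunit that helps bind haem, stood at 16.8, 20.3, 18.9, 18.7 and 21.1 CPM in Visudyne and 23.8, 24.1, 22.5, 26.1 and 21.4 CPM in vehicle. These groups did not overlap either, with a log2 fold change of -0.30 ± 0.075 (SE; edgeR adjusted p = 0.0277).

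Sdha, the flavoprotein subunit that holds the succinate site, stood at 180.3, 174, 184, 178 and 187 CPM in Visudyne and 189.8, 193, 188, 184 and 182 CPM in vehicle. The groups overlapped, and the log2 fold change of -0.05 had a 95% interval from -0.15 to 0.05. Sdhd, the other membrane anchor, stood at 45.2, 46.8, 49.4, 46.0 and 47.2 CPM in Visudyne and 47.4, 51.1, 48.3, 45.1 and 47.5 CPM in vehicle. Its groups overlapped through most of their range, at a log2 fold change of -0.03 (95% interval -0.14 to 0.08). The coefficient of variation of Sdha was 2.26% in vehicle, the lowest of the tested members there.

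In complex III, 3 of 9 members were called lower and 0 higher, with a median log2 fold change of -0.47. Uqcrh (ENSMUSG00000063882, chromosome 4, 116066965 to 116075071) encodes the acidic hinge protein, which lies near cytochrome c1. It stood at 41, 59.5, 56.9, 57.8 and 62.9 CPM in Visudyne and at 74.4, 81.4, 81.1, 82.6 and 64.6 CPM in vehicle. The groups did not overlap, Visudyne 1 being the lowest by a wide gap and vehicle 10 the lowest of its group. Its level was 0.724 of vehicle (-0.47 ± 0.108 on the log2 scale, estimate ± SE, edgeR adjusted p = 0.0261). Removing the GC trend left it at -0.47 and called (adjusted p = 0.0406 by edgeR).

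The other 2 called genes of complex III had few counts and a large spread. Uqcrc1, a core protein, had 17 to 469 counts and stood at 0.534, 2.80, 1.6, 1.39 and 3.89 CPM in Visudyne and 7.40, 6.07, 3.04, 11.9 and 3.43 CPM in vehicle. Visudyne 5 lay above vehicle 8 and 10, so the groups overlapped despite a fold of 0.322 (95% interval of the log2 value -2.65 to -0.62). Cyc1, which carries the haem of cytochrome c1, stood at 3.30, 6.81, 6.61, 8.07 and 9.99 CPM in Visudyne and 13, 10.6, 10.3, 16.9 and 9.53 CPM in vehicle. Here too Visudyne 5 exceeded the lowest vehicle library, with a log2 fold change of -0.79 ± 0.242 (SE; edgeR adjusted p = 0.0408).

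The remaining members of complex III were not called. Uqcr10 stood at 2.64, 4.04, 4.60, 3.63 and 5.58 CPM in Visudyne and 5.79, 5.56, 5.96, 8.57 and 4.25 CPM in vehicle (adjusted p = 0.0695 by edgeR). Uqcr10 and Uqcr11 are small subunits with folds of 0.679 and 0.582. Uqcrfs1, the Rieske iron-sulfur protein, was at 0.939, Uqcrc2 at 0.948 and Uqcrq at 0.898 of vehicle, while Uqcrb, a ubiquinone-binding subunit, was at 1.14. Uqcrc2 was called lower once the GC trend was removed, at a log2 fold change of -0.25 in place of -0.08 (adjusted p = 0.0428 by edgeR).

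Complex IV, cytochrome c oxidase, held members that went both ways. Of 9 tested, 3 were called lower and both of the members called higher belonged here. Cox4i1 (ENSMUSG00000031818, chromosome 8, 120668222 to 120674207), the subunit through which ATP inhibits the enzyme, stood at 10.4, 21.5, 18.6, 22.0 and 27.5 CPM in Visudyne and 37.9, 32.9, 30.0, 49.7 and 27.1 CPM in vehicle. Its groups overlapped by the single pair Visudyne 5 and vehicle 10. The log2 fold change was -0.83 ± 0.223 (SE; edgeR adjusted p = 0.0311), or -0.43 and not called with the GC trend removed.

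Cox7a2, a small subunit present in most tissues, stood at 19.7, 21.8, 24.5, 26.4 and 29.7 CPM in Visudyne and 40.0, 28.8, 32.9, 40.2 and 30.2 CPM in vehicle, a fold of 0.709 (adjusted p = 0.0277 by edgeR). Only Visudyne 5 and vehicle 7 crossed. Cox6a1, which contacts the partner molecule in the dimeric enzyme, stood at 19.2, 31.2, 27.1, 30.9 and 34.6 CPM in Visudyne and 41.1, 38.3, 34, 44.2 and 35.2 CPM in vehicle, a fold of 0.743 (adjusted p = 0.0426 by edgeR). With the GC trend removed its log2 fold change went from -0.43 to -0.00087. Cox6b1 and Cox8a were not called, at 0.721 and 0.776 of vehicle, although the groups of Cox6b1 did not overlap.

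Cox7c (ENSMUSG00000017778, chromosome 13, 86044816 to 86046904) was called higher. This small membrane subunit stood at 56.4, 52.9, 60.2, 53.5 and 51.9 CPM in Visudyne and 53.1, 44.0, 44.0, 43.3 and 45.8 CPM in vehicle. All vehicle libraries but vehicle 6 were below every Visudyne library (0.26 ± 0.069 on the log2 scale, estimate ± SE, edgeR adjusted p = 0.0311). Cox6c, another small membrane subunit, stood at 135, 123, 131, 123 and 116 CPM in Visudyne and 109, 109, 121, 102 and 109.5 CPM in vehicle (log2 fold change 0.19, adjusted p = 0.0446 by edgeR). Vehicle 8 lay above Visudyne 5. Both calls depended on the scaling. With total counts Cox6c turned to -0.016 and Cox7c kept its sign at 0.046, neither called, and Cox6c was not called with RLE (relative log expression) factors (adjusted p = 0.0519 by edgeR). With the GC trend removed Cox6c was at 0.17 and Cox7c at 0.13, neither called.

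Cox5a, at a log2 fold change of 0.014 (95% interval -0.14 to 0.17), and Cox7b, at 1.07 times vehicle, completed the tested members. Cox5b, a zinc-binding subunit, was too low to test, with 6, 5, 0, 0 and 11 counts in Visudyne and 26, 8, 17, 29 and 3 counts in vehicle.

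Complex V had 6 of 14 members called lower and 0 higher, with a median log2 fold change of -0.24. In its catalytic head, Atp5b (ENSMUSG00000025393, chromosome 10, 128083273 to 128090391) stood at 380.3, 448, 422, 453 and 478 CPM in Visudyne and 561, 509, 533, 551 and 497 CPM in vehicle. The groups did not overlap (436 ± 37 and 530.4 ± 27 CPM, SD, n = 5 each), and the log2 fold change was -0.28 ± 0.068 (SE; edgeR adjusted p = 0.027). Atp5a1, the alpha subunit, was at 0.93 of vehicle and not called, though its groups did not overlap, with 341 to 364 CPM in Visudyne and 375 to 399 CPM in vehicle. In the central stalk, Atp5c1, the gamma subunit, was at 0.997 (95% interval of the log2 value -0.14 to 0.13). Atp5e, the epsilon subunit, was called lower at 0.722, and Atp5d was at 0.501 and not called, with 23 to 285 counts.

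The peripheral stalk holds the head still while the central stalk turns, and its genes split. Atp5h (ENSMUSG00000034566, chromosome 11, 115415689 to 115419962), subunit d, stood at 48.8, 63.3, 60.0, 63.8 and 67.2 CPM in Visudyne and 82.1, 76.9, 80.2, 87.3 and 69.98 CPM in vehicle. The groups did not overlap, at a log2 fold change of -0.39 ± 0.087 (SE; edgeR adjusted p = 0.0249), or -0.35 with the GC trend removed (adjusted p = 0.0389). Atp5o, the oligomycin sensitivity protein that joins stalk and head, stood at 27.9, 40.8, 39.4, 45.5 and 49.8 CPM in Visudyne and 55, 53.4, 52.6, 59.5 and 55.6 CPM in vehicle. It had the widest spread in the Visudyne group relative to vehicle among these stalk genes, at 20.2% against 4.84%, and a log2 fold change of -0.44 (adjusted p = 0.0326 by edgeR). Atp5f1, subunit b, was at 1.11 and Atp5j, coupling factor 6, at 1.15 of vehicle, and neither was called.

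In the membrane part, Atp5j2 (ENSMUSG00000038690, chromosome 5, 145183698 to 145192062), subunit f, stood at 5.15, 9.23, 8.33, 9.28 and 12.1 CPM in Visudyne and 16.4, 14.3, 13, 21.2 and 11.4 CPM in vehicle. Only Visudyne 5 and vehicle 10 crossed, at a log2 fold change of -0.79 ± 0.207 (SE; edgeR adjusted p = 0.0298), or -0.64 with the GC trend removed (adjusted p = 0.0495). Atp5k, subunit e, which takes part in pairing ATP synthases, was called lower at 0.724 of vehicle, while Atp5l, subunit g, was at 1.08 and not called. Atp5g1 and Atp5g3 encode the proton-carrying ring subunit from separate genes. Atp5g1 stood at 18.8, 24.7, 23.3, 23.7 and 25.2 CPM in Visudyne and 27.9, 24.1, 25.7, 31.4 and 23.7 CPM in vehicle. Atp5g3 stood at 90.4, 91.1, 99.4, 86.1 and 80.2 CPM in Visudyne and 89.9, 90.4, 93.7, 73.5 and 84.1 CPM in vehicle. Groups overlapped in both genes, whose log2 fold changes were -0.20 (95% interval -0.41 to 0.014) and 0.051 (-0.12 to 0.22). The third ring gene, Atp5g2, was not analysed here.

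**Figure D2:**
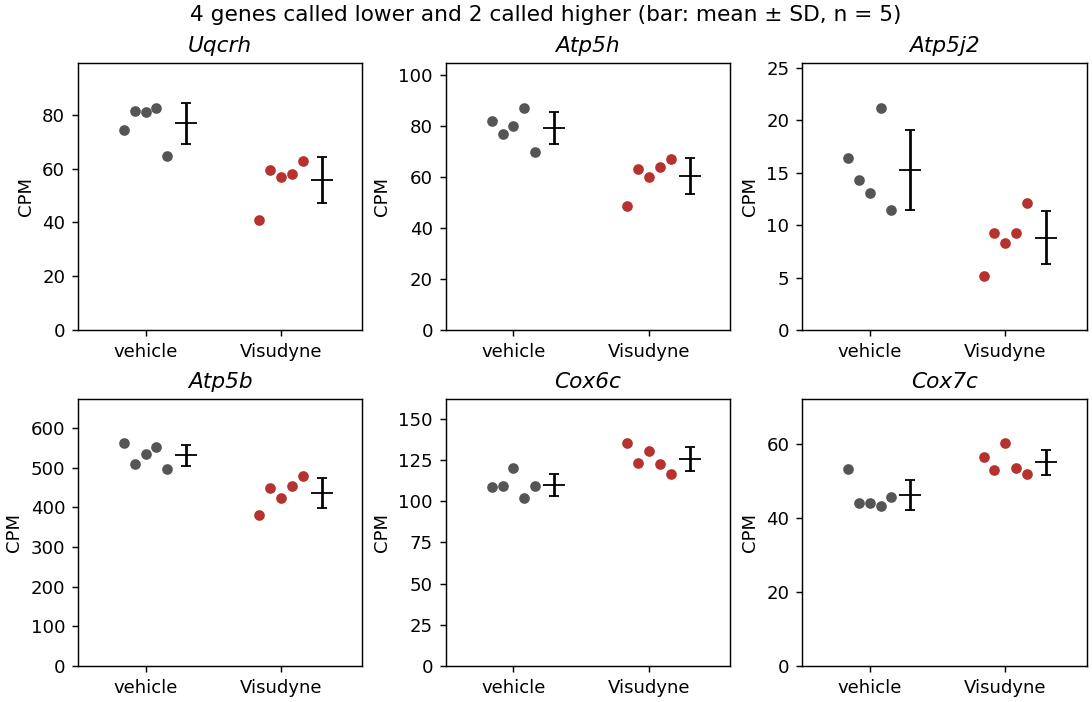
Expression in CPM (vertical axes, from 0) of 4 genes called lower (top row and lower left) and of Cox6c and Cox7c, called higher, where each point is a library and black bars show mean and SD. Uqcrh, Atp5h and Atp5b separate the groups, while Atp5j2, Cox6c and Cox7c overlap by 1 or more libraries.

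**Figure D3:**
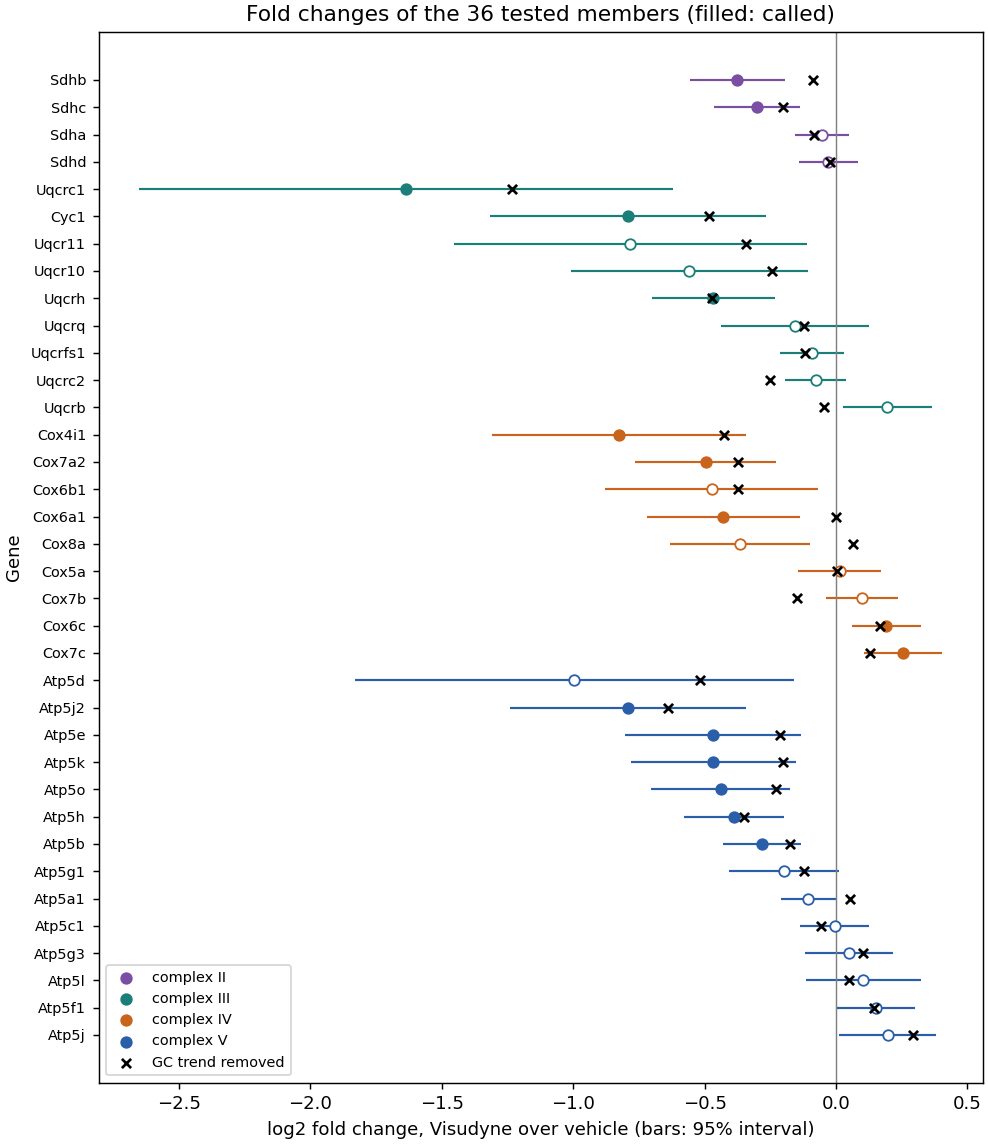
Log2 fold change, Visudyne over vehicle (horizontal axis), of the 36 tested members by complex, with 95% intervals; filled points were called and open points were not. Crosses show the same gene with the GC trend of each library removed, where the median goes from -0.29 to -0.13.

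Most members called lower had a high GC content in their transcripts, which the choice of the set had not used. Of 13 tested members under 50% GC, 6 were below 0 and 7 above, with 1 called lower (Uqcrh) and 2 called higher. Of 23 members at 50% or over, 21 were below 0, with 13 called lower and 0 higher. Across the 36 members the log2 fold change and GC content had a Pearson's r of -0.76 and a Spearman's rho of -0.81, and across 15829 tested genes with a known GC content -0.59 and -0.68. Both are descriptions across genes that share the same 10 libraries. With transcript length the members' r was 0.040, and with log2 vehicle CPM it was 0.64.

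All tested genes followed the same order. Their median log2 fold change was 0.24 under 45% GC, 0.069 from 45% to under 50%, -0.14 from 50% to under 55% and -0.42 at 55% or over. In the last 2 ranges the members' medians were -0.37 (15 members, 9 called lower) and -0.79 (8 members, 4 called lower), where 17.4% and 29% of all genes were called lower. Under 45% the 3 members had a median of 0.099.

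The libraries were spread along the same axis within each group. The centred mean of the 8 members at 55% GC or over was -1.32 in Visudyne 1, -0.22 in Visudyne 2, -0.43 in Visudyne 3, -0.32 in Visudyne 4 and 0.23 in Visudyne 5. In vehicle 6 to 10 it was 0.58, 0.35, 0.13, 1.01 and -0.0073. The groups overlapped through Visudyne 5, which lay above vehicle 8 and 10. The 13 members under 50% GC had centred means of only -0.13 to 0.084 over all 10 libraries. The spread between libraries of the same group also rose with GC content (Spearman's rho across members 0.77 in Visudyne and 0.65 in vehicle), up to 64.2% and 56.5% for Uqcrc1. Level per kilobase fell with GC content as well (rho -0.50), and Uqcrc1 had only 17 to 469 counts. The parts of GC content and of low counts in this spread were not separated. The median coefficient of variation over members was 11.3% and 9.72%, beside 14% and 12.6% for all tested genes.

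With each library's GC trend removed, 4 members were called lower and 0 higher, Uqcrh, Atp5h, Atp5j2 and Uqcrc2, where 1.86% of all genes were called lower and 1.88% higher. The median of the members was then -0.13, beside -0.0039 over all genes. None of the 4 calls held without Visudyne 1, where 0 of the 37 members tested there were called and 14 had an unadjusted p under 0.05 by edgeR. In that fit only 8 of 16119 genes were called lower and 19 higher, and 2900 had an unadjusted p under 0.05. The median of the members was -0.14. With the GC slope of each library as a covariate 0 members and 0 of all genes were called, and the median was -0.041. An unadjusted p under 0.05 by edgeR went to 1 of the 36 members and 1035 of 15938 genes. In that fit Uqcrh was at -0.097, Atp5h at -0.068 and Atp5j2 at 0.053.

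**Figure D4:**
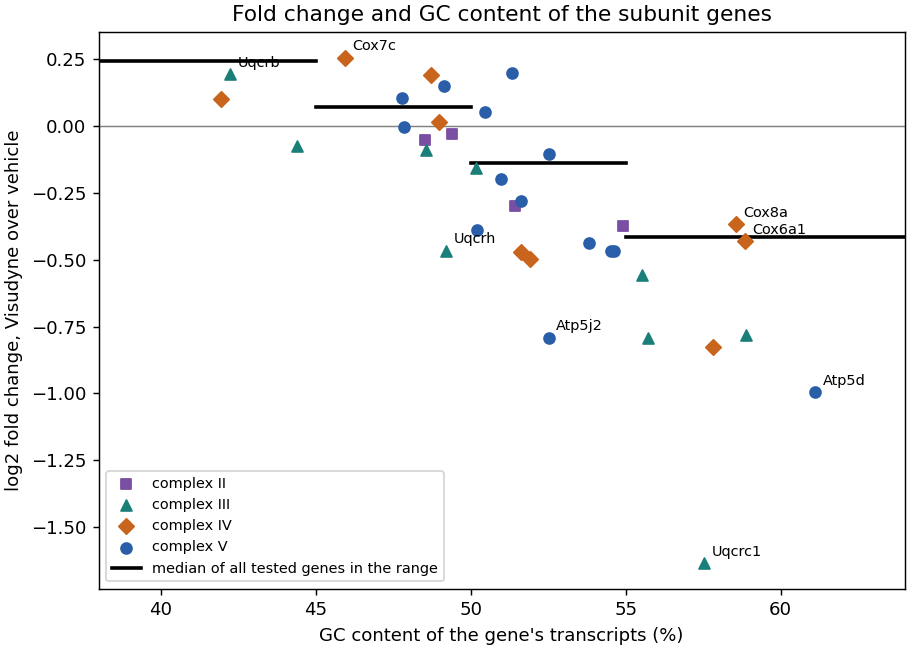
Log2 fold change, Visudyne over vehicle (vertical axis), against the GC content of each gene's transcripts (horizontal axis, percent) for the 36 tested members, with symbols by complex. Black lines give the median of all tested genes in 4 ranges of GC content, from 0.24 under 45% to -0.42 at 55% or over.

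Promoter windows are shown for the 3 genes called lower both before and after removal of the GC trend, and for Cox7c, called higher with TMM scaling. The windows run from 250 bases before to 50 bases after the start site (RefSeq, GRCm38.p6, all on the minus strand and written 5′ to 3′), at chr4:116075021-116075320 for Uqcrh, chr11:115419870-115420169 for Atp5h, chr5:145191492-145191791 for Atp5j2 and chr13:86046746-86047045 for Cox7c. Capitals mark matches on either strand to short motifs of factors known to drive nuclear respiratory genes, namely GCGCA, any base and GCGC in a row for NRF1, CCGGAAG for GABP, AANATGGCG for YY1 (N is any base) and GGGCGG for SP1. No marked matches overlap in these windows.
Uqcrh: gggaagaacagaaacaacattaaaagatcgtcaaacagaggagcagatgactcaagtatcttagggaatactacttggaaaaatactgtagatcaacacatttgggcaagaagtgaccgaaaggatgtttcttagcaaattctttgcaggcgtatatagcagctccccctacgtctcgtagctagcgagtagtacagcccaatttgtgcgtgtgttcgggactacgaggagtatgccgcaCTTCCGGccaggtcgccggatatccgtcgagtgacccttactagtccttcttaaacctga
Atp5h: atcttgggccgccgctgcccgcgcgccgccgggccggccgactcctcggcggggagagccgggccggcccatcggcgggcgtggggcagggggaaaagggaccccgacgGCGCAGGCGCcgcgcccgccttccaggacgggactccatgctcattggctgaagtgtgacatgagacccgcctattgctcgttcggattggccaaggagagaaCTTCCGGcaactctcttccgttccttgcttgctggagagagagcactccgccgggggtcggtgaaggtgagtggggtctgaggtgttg
Atp5j2: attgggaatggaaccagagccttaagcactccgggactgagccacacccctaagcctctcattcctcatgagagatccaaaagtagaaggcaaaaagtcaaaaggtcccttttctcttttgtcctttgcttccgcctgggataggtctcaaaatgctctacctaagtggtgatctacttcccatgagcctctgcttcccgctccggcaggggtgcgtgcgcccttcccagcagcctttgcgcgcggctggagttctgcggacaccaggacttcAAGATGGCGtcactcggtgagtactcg
Cox7c: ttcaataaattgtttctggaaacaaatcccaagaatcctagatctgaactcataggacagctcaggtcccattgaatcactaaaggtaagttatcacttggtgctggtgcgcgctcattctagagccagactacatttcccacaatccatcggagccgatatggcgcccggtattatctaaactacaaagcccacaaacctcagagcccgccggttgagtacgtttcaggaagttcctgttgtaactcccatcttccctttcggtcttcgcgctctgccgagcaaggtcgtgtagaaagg
The Uqcrh window holds a GABP match, that of Atp5h an NRF1 and a GABP match, that of Atp5j2 a YY1 match just after the start site, and that of Cox7c none of the 4. A match is only a match of letters in this window.

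Windows were matched for 29 of the 37 members, Atp5f1 under its newer name Atp5pb. Sdhc, Uqcrc2, Uqcrb, Uqcrq, Cyc1, Cox4i1, Cox6c and Atp5a1 had no entry. NRF1 letters were in 8 of the 29 (27.6%), beside 4.78% of the 27025 promoters, and GABP letters in 11 (37.9%), beside 9.12%. YY1 letters were in 2 (6.9%, beside 2.51%) and SP1 letters in 9 (31%, beside 35.9%). Of the 11 called-lower members with a window, 5 held NRF1 and 6 GABP letters, and of the other 18 members 3 and 5 did. SP1 letters were in 5 of the 11 and 4 of the 18, and YY1 letters in 2 and 0. All 4 motifs thus leaned the same way, and a link between motifs and calls was not tested.

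Of 6 subunits of the same complexes from the mitochondrial genome, 4 were called higher and 0 lower, with a median log2 fold change of 0.38, where 8.98% of all genes were called higher. None was called after removal of the GC trend. mt-Atp6, the subunit that forms the proton channel of complex V, was at 4596 to 6089 CPM in Visudyne and 3565 to 4044 CPM in vehicle, without overlap (fold 1.41, adjusted p = 0.0201 by edgeR). mt-Cytb, the cytochrome b of complex III, was at 3366 to 4715 and 2780 to 3326 CPM, a fold of 1.32, again without overlap. mt-Co1, the catalytic subunit of complex IV, was called at 1.29 and mt-Atp8 at 1.34, while mt-Co2 and mt-Co3 were at 1.15 and 1.21 and not called. With total counts mt-Co2 was at -0.0071 on the log2 scale. With the GC trend removed the median of the 6 was 0.032, and mt-Co2, mt-Co3 and mt-Atp8 were below 0. These transcripts have 31.9% to 39.9% GC.

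Summed over members, complex V transcripts of nuclear origin were at 1510 to 1610 CPM in Visudyne and 1654 to 1783 CPM in vehicle, and those of mt-Atp6 and mt-Atp8 at 5233 to 6912 and 4054 to 4652 CPM. Neither pair of ranges overlapped. The ratio of mitochondrial to nuclear CPM was 4.58, 3.99, 4.23, 3.31 and 3.37 in Visudyne 1 to 5 and 2.27, 2.7, 2.54, 2.45 and 2.81 in vehicle 6 to 10. In complex III it was 8.85 to 13.1 and 6.73 to 7.86, also without overlap. In complex IV it was 36.4 to 55.9 in Visudyne and 29.2 to 38.3 in vehicle, with Visudyne 5 below vehicle 10. These sums and ratios were not corrected for GC content, in which the nuclear and mitochondrial transcripts differ. With the GC trend removed, the median log2 fold change was 0.032 for the mitochondrial subunits and -0.13 for the members. In hippocampal bulk RNA, fewer cells of a type and less RNA per cell cannot be told apart.

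**Figure D5:**
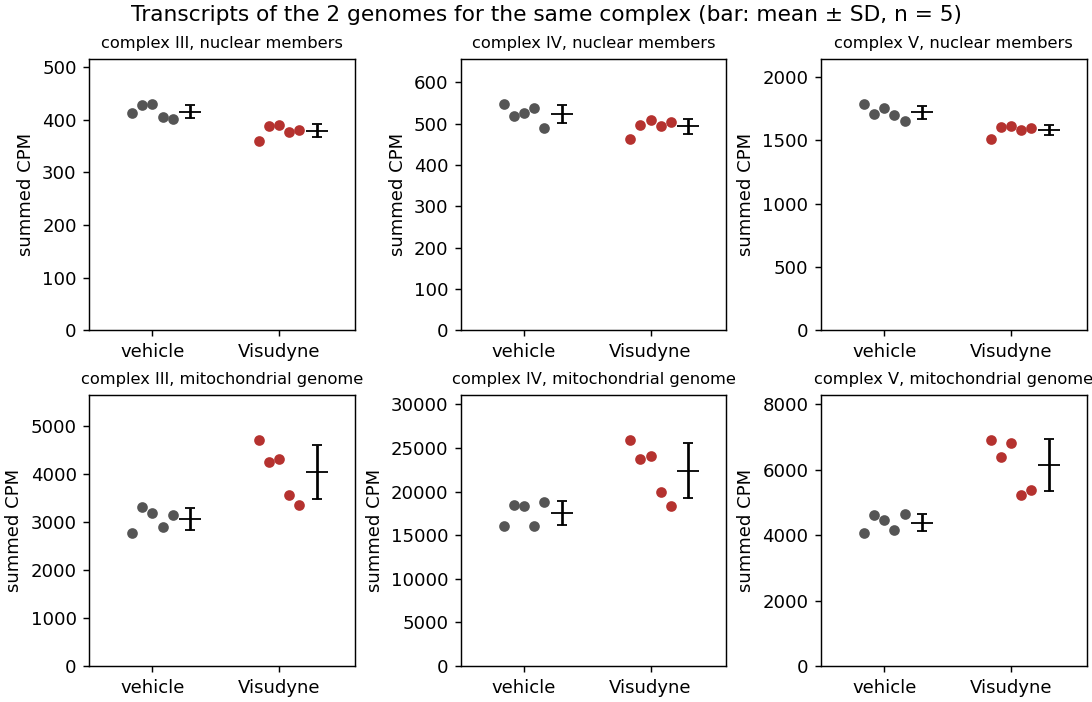
Summed CPM (vertical axes, from 0) of the nuclear members (top row) and of the mitochondrially encoded subunits (bottom row) of complexes III, IV and V, where each point is a library and black bars show mean and SD. Groups do not overlap in complexes III and V, and do in complex IV. The sums were not corrected for GC content.

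Of 15 further subunits, isoforms and partners of the same complexes, such as the carrier cytochrome c, 13 were in the table and 7 tested. Of the 7, 1 was called lower and 1 higher, where 20.5% of all genes were called in either direction. Cox7a2l, which joins complexes III and IV into supercomplexes, was at 0.851 of vehicle (adjusted p = 0.031 by edgeR), and Cycs, cytochrome c, rose from 107 ± 12.9 to 135 ± 19.3 CPM (SD, n = 5 each, adjusted p = 0.0479). Cycs was at 0.052 on the log2 scale with the GC trend removed, and neither was then called. Atp5s was at 1.19 and Usmg5, a small ATP synthase subunit, at 1.17 of vehicle, and neither was called. The alternative isoforms named next were near 0 beside the common ones. The member Cox5b was also low, at 0.555 CPM per kilobase, so a level near 0 does not show that a transcript is absent. Mean vehicle levels were 0.135 CPM per kilobase for Cox4i2, 0.197 for Cox6a2, 0.175 for Cox6b2, 0.366 for Cox7a1 and 0.12 for Cox8b, from at most 13 counts in any library. Cox4i1, Cox6a1, Cox6b1, Cox7a2 and Cox8a were at 47.01, 67.5, 48.2, 52.2 and 158 CPM per kilobase. Ndufa4, also a subunit of complex IV, was listed at 0 in all Visudyne libraries and in all vehicle libraries but 2, with 88 counts in vehicle 6 and 29 in vehicle 8. As with the lowest members, the authors' counting could have given its reads to similar copies. The listed counts of Ndufa4 therefore show neither its level nor a difference between groups.

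Of 36 assembly factor genes 35 were tested, 4 were called lower and 1 higher, and the median was -0.048. With 11.5% of all genes called lower and 8.98% higher, these counts are near or under the background and are no result about the list. Surf1, needed to assemble complex IV, was at 0.747 of vehicle, Uqcc2, which helps translate cytochrome b, at 0.7 and Atpaf2, a chaperone of the alpha subunit, at 0.732. Cox20, a chaperone of mt-Co2 protein, was at 1.37 (adjusted p = 0.0284 by edgeR), without overlap between groups. The fourth gene called lower, Coa3, falls outside the naming rule and was chosen after its values were seen. It was at 0.723.

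Among 15 regulators of nuclear respiratory genes, 1 was called higher and 0 lower, at a median of 0.089. With 8.98% of all genes called higher and 11.5% lower, these counts are no result about the list. The gene called higher was Ppargc1a, the coactivator PGC-1alpha that drives mitochondrial biogenesis. It stood at 55.4, 48.2, 52.0, 53.5 and 49.3 CPM in Visudyne and 39.0, 46.6, 43.4, 43.5 and 39.1 CPM in vehicle. No vehicle library reached a Visudyne one, which held for 5.25% of all tested genes. Its log2 fold change was 0.29 ± 0.065 (SE, edgeR adjusted p = 0.0252). Removing the GC trend gave 0.13 and scaling by total counts gave 0.083, neither of them called. Tfb2m at 1.17, Creb1 at 1.16 and Sp1 at 1.17 of vehicle were not called.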

How the data were processed

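RNA of 10 hippocampus samples was sequenced as total RNA with a stranded kit, per the labels' protocols. FastQC, Salmon and build mm10 are named in the submitters' processing notes. The authors deposited whole-number estimated counts per Ensembl gene, which were used as they stand; their annotation and filters are not stated in the labels. Salmon divides reads among similar transcripts by model.

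Symbols, positions, transcript lengths and GC content came from GENCODE M21 on GRCm38, which is mm10, and 27053 of 27343 identifiers were found. The test was quasi-likelihood in edgeR 4.0.16 under R 4.3.3 (genes kept by filterByExpr, TMM, no covariates, two-sided, Benjamini-Hochberg over 15938 genes). The SE is the log2 fold change divided by the square root of F. Replicate numbers run on from 1 to 10, so nothing pairs the libraries. Library pairs within a group differed beyond sampling noise (lowest chi-square per degree of freedom 13.5). GC trends were fitted per library by loess (span 0.3) on log2 CPM (prior count 2) and entered as offsets. The fit was tested on simulated data.

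The members and lists were chosen with earlier results of these data known, so no test over a list is given. Values in every library go to the 4 members with the smallest p in each complex, members called higher and the ring genes. Elsewhere up to 4 genes per list are named, besides mitochondrial partners and isoform pairs. Alternatives were DESeq2 1.42.0, limma 3.58.1 (voom), other scalings and filters, GC corrections, sva 3.50.0 and leaving out each library.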

Additional observations from a re-analysis of the deposited data

Results flagged for a closer look

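Among 114 groups of 5 libraries checked, 5 had a library whose gap to its nearest neighbour took over 0.71 of the group's range; chance gives about 1 in 20. In the Visudyne group Visudyne 1 stood low in Uqcrh (41 CPM, next 56.9), Cox6b1 (8.82, next 17.6) and Atp5a1 (341, next 359). Visudyne 5 stood low in Cox5a (58.8 CPM, next 64.5). In vehicle, vehicle 6 stood high in Cox7c (53.1 CPM, next 45.8). Without Visudyne 1 the log2 fold change of Uqcrh was -0.37, and without vehicle 6 that of Cox7c was 0.31.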

How the results depend on the processing

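Limits: 5 libraries a group, GC slopes that lean with the groups, and few counts for Uqcrc1, Uqcr11, Atp5d and Cox5b set what these data can show of the members. The values below are log2 fold changes unless counts are named, and where a value moved the cause was not tested. No paired analysis was possible because the groups share no replicate number.

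The members called lower (14) and higher (2) were 24 and 0 with total counts, 14 and 1 with RLE factors, 11 and 0 without a filter, 4 and 0 after removal of the GC trend, and 0 and 0 with either the GC slope or 1 surrogate variable in the model. In the last 2 settings 1 and 10 members had an unadjusted p under 0.05, beside 1035 and 2548 of 15938 genes. DESeq2 called 19 and 2, voom 14 and 2, where 17.4% and 12.2% of all genes were called lower. Of all genes, 24.5% were called lower with total counts, 11.3% with RLE factors and 4.6% without a filter. Leaving out 1 library gave 0 to 18 lower and 0 to 3 higher. Chosen after seeing the data, leaving out Visudyne 3 and 5 gave 15 and 0. Leaving out Visudyne 1 and vehicle 9, chosen likewise, gave 0 and 0. In the latter fit the median was -0.22, and 29 of 36 members lay below 0. An unadjusted p under 0.05 by edgeR went there to 18 of 36 members and 4334 of 15911 genes. Of those 15911 genes, 42 were called lower and 58 higher. With the GC trend removed as well, leaving out Visudyne 1 and vehicle 9 gave 0 and 0, as did leaving out Visudyne 1 alone. The median (-0.29) was -0.49 with total counts, -0.13 after removal of the GC trend, -0.041 with the GC slope, -0.086 with 1 surrogate variable, -0.11 (without Visudyne 1 and vehicle 9) or -0.14 (without Visudyne 1) after removal of the GC trend, and -0.34 to -0.26 leaving out 1 library. All genes called lower and higher were 1829 and 1432, 3902 and 196 with total counts, 296 and 299 after removal of the GC trend, 0 and 0 with the slope, and 0 and 1 with the surrogate variable.

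Signs turned as follows. With total counts Uqcrb went to -0.012, Cox5a to -0.19, Cox6c to -0.016, Cox7b to -0.11, Atp5f1 to -0.057, Atp5g3 to -0.16, Atp5j to -0.013, Atp5l to -0.11 and mt-Co2 to -0.0071. With the GC trend removed Uqcrb went to -0.044, Cox7b to -0.15, Cox8a to 0.064, Atp5a1 to 0.053, Atp5s to -0.058, Tfb2m to -0.0055, mt-Co2 to -0.098, mt-Co3 to -0.026 and mt-Atp8 to -0.0093. With the GC slope as a covariate those that became positive were Uqcrc1 (0.20), Uqcrq (0.098), Uqcr10 (0.19), Uqcr11 (0.42), Cyc1 (0.16), Cox4i1 (0.083), Cox6a1 (0.069), Cox6b1 (0.19), Cox8a (0.11), Atp5d (0.64), Atp5e (0.090), Atp5g1 (0.15), Atp5j2 (0.053), Atp5k (0.093) and Uqcc2 (0.0087). Those that became negative were Uqcrb (-0.043), Cox5a (-0.11), Cox7b (-0.071), Atp5f1 (-0.056), Atp5g3 (-0.073), Atp5j (-0.047), Atp5l (-0.11), Atp5s (-0.024), Usmg5 (-0.0014), Cycs (-0.055), Tfb2m (-0.0042), Creb1 (-0.037), mt-Co2 (-0.098) and mt-Co3 (-0.096). With 1 surrogate variable Uqcr11 went to 0.0033, Atp5d to 0.011, Atp5g1 to 0.023, Cox5a to -0.077, Cox7b to -0.018, Atp5g3 to -0.047 and Atp5l to -0.056. Atp5c1 was at 0.0014 with DESeq2 and 0.0016 with RLE factors. Leaving out 1 library gave -0.045 to 0.014 for Atp5c1, -0.046 to 0.046 for Cox5a and -0.011 to 0.080 for Atp5g3.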
